A study of Mus musculus with 5 samples.

Results

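Enzymes of the methionine and one-carbon cycle were followed through 9 genes, Mat1a, Gnmt, Nnmt, Ahcy, Bhmt, Bhmt2, Cbs, Cth and Shmt1, taken by gene symbol from the 36401 genes counted. Each symbol matched a single Ensembl gene. Of the 9, 8 passed the filter on low counts, and Nnmt did not. RNA came from lobe 1 of the liver of BALB/C pups on day 10 of life. Mdr2+/- (heterozygous) pups gave 3 libraries, and Mdr2+/+ (wild-type) pups gave 2. The line came from Mdr2-/- mice backcrossed to BALB/C, and the genotypes were kept as littermates. The labels describe neither the Mdr2 allele nor which pups shared a litter. Whether every library came from its own pup is not stated, so the p-values describe variation among these 5 libraries, which may be technical.

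Mdr2 is the older name of Abcb4, the canalicular floppase that moves phosphatidylcholine into bile. Abcb4 RNA was 101, 97.7 and 92.6 normalised CPM (counts scaled to a common library size) in the Mdr2+/- libraries, against 162 and 162 in the Mdr2+/+ libraries, and so lower in every library labelled Mdr2+/-. Library totals were 11944157 to 17312851 estimated counts. The test called 1680 of 13959 genes (12%), of which 925 were higher in Mdr2+/- livers (6.63% of those tested) and 755 lower (5.41%). That split was 704 higher and 936 lower when libraries were scaled by size alone, and 331 and 650 when scaled to hepatocyte markers. These scalings shift all genes nearly alike: the median log2 fold change over all tested genes was -0.040 by size alone and -0.078 by hepatocyte markers. With 1 library left out at a time, 697 to 1174 genes were called. The hepatocyte markers were abundant: 9 of the 10 listed genes were counted, none was at 0, and their sum was 171624 to 186575 CPM in Mdr2+/- and 159740 to 173287 CPM in Mdr2+/+ libraries. Most of that sum was Alb, at 131648 to 146449 CPM in Mdr2+/- and 119084 to 131517 CPM in Mdr2+/+ libraries. The median log2 fold change of these 9 was 0.021, and among them Cps1 rose and Apoa1 fell.

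The methionine cycle makes S-adenosylmethionine (SAM), the methyl donor of most cellular methylation, and the liver is its main site. Mat1a makes SAM from methionine and ATP. Methyltransferases such as Gnmt and Nnmt spend it and leave S-adenosylhomocysteine (SAH), which Ahcy splits into homocysteine and adenosine. Homocysteine is then methylated again, with betaine as donor through Bhmt or by the folate route through Mtr, or passed to cysteine through Cbs and Cth. Shmt1 links serine and glycine to the folate pool that carries single carbons. In liver the cycle also meets phosphatidylcholine, since Pemt makes that lipid by methylating phosphatidylethanolamine with SAM.

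Promoter windows of 3 members are shown, picked by their fold changes and position. Gnmt had the largest difference between the genotypes, while Bhmt and Bhmt2 are neighbouring relatives that did not pass the test. Whether these windows bear on that difference was not tested. Each runs from 250 bases before the start that RefSeq gives (GRCm38.p6) to 50 bases from it, on the minus strand, at chr17:46729116-46729415, chr13:93637709-93638008 and chr13:93674253-93674552. Capitals mark matches on either strand to CCAAT or to GGGCGG.
Gnmt: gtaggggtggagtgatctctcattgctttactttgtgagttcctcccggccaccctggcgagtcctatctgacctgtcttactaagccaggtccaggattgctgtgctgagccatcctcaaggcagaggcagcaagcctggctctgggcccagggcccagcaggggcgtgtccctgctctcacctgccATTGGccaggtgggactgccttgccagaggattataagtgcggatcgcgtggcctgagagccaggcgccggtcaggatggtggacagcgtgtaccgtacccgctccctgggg
Bhmt: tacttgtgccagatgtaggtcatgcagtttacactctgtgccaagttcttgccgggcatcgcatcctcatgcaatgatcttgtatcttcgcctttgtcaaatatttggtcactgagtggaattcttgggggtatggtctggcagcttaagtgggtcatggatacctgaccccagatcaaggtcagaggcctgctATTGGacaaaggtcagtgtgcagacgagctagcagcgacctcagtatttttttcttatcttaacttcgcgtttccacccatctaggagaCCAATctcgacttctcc
Bhmt2: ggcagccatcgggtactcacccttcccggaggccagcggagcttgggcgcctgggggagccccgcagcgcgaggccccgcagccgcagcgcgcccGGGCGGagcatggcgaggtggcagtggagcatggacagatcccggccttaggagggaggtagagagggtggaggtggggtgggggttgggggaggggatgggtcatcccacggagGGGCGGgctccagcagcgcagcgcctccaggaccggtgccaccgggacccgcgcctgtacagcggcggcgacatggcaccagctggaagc
The table of windows held 6 of the 9 members, and Mat1a, Cth and Nnmt are named only. The RefSeq start equals the GENCODE gene start used below for Bhmt2, lies 3 bases inside it for Gnmt and lies 203 bases inside it for Bhmt. With the RefSeq start base as 0, Gnmt had a reverse CCAAT at -62 and Bhmt had a reverse CCAAT at -56 and a forward CCAAT at 33. Bhmt2 had GGGCGG at -155 and at -40 and no CCAAT. Of 32544 windows of the same length, 37.4% held CCAAT and 35.9% held GGGCGG. The windows also differed in composition, with 62.0% G or C in Gnmt, 48.0% in Bhmt and 73.7% in Bhmt2. Both strands were also searched for TATAAA (in 13.6% of all windows), CACGTG (7.17%), TGACGTCA (1.8%), TGATGNAAT (0.956%), TTGCNNAA (10.8%) and a direct repeat of AGGTCA with any base between (0.0399%), and these 3 windows held no match.

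The comparison asks whether these enzymes' transcripts differ in liver when an Mdr2 allele is missing. Mat1a, Gnmt and Cth rose in Mdr2+/- livers, 3 of the 8 tested members, and 0 fell (edgeR quasi-likelihood test, Benjamini-Hochberg adjusted p under 0.05 over all tested genes; 12% of all tested genes were called). At an unadjusted p under 0.05, Ahcy was the only further member. Without Mdr2+/- replicate 2 or Mdr2+/+ replicate 1 the count was 1, Gnmt. The median log2 fold change over the 8 was 0.20, beside -0.0025 over all tested genes. The 2 genotypes did not overlap for 5 of the 8, beside 45.5% of all tested genes. By mean CPM the 8 ranked from 39 (Bhmt) to 539 (Cth) of 13959 tested genes. The shares over all tested genes thus include many less abundant genes. In bulk RNA, fewer cells of a type and less RNA per cell cannot be told apart.

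**Figure D1:**
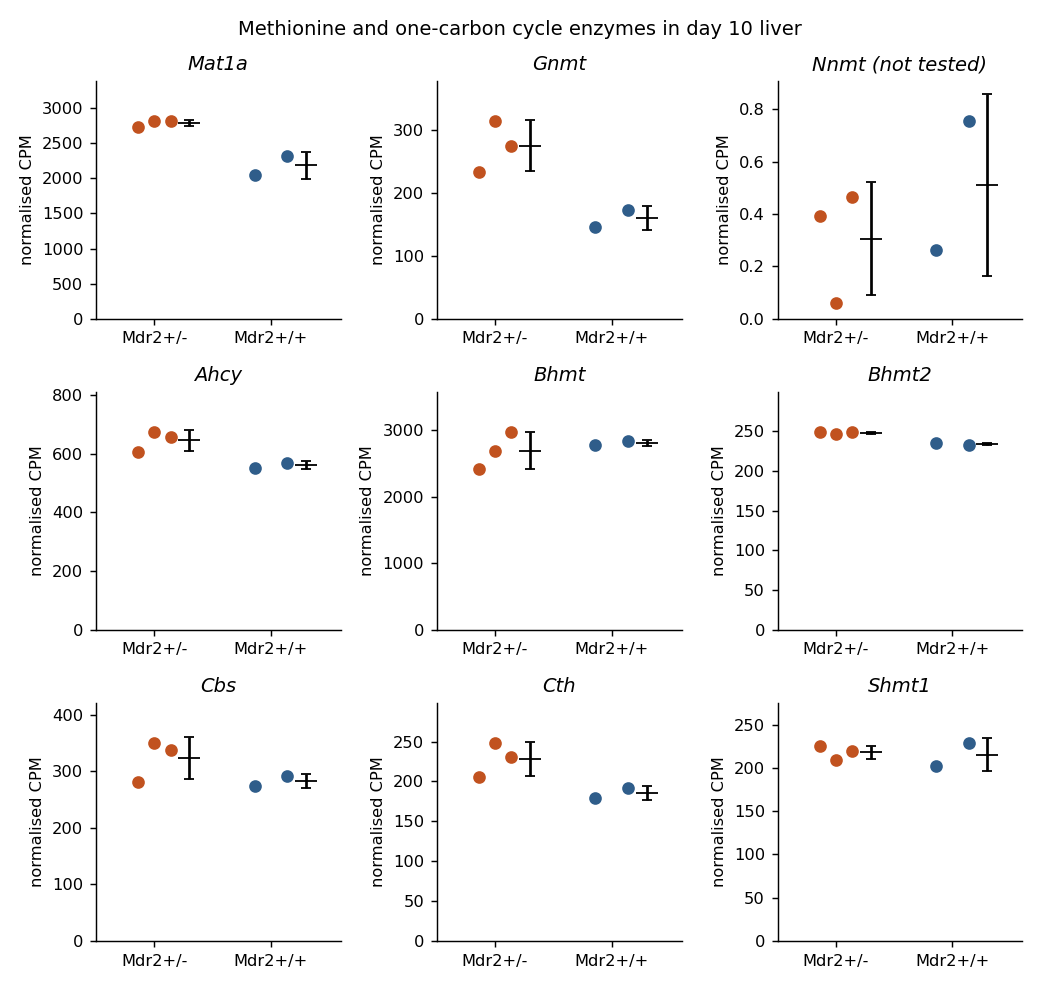
Normalised CPM (vertical axis, from 0) of each of the 9 enzymes in the 3 Mdr2+/- libraries (left) and the 2 Mdr2+/+ libraries (right); points are libraries, and bars are the mean and SD. Gnmt, Mat1a and Cth, and also the uncalled Ahcy and Bhmt2, are higher in every Mdr2+/- library. The 2 genotypes overlap for Bhmt, Cbs, Shmt1 and the barely detected Nnmt.

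SAM synthesis was represented by Mat1a (ENSMUSG00000037798, chromosome 14, 41105035 to 41124412, plus strand, mm10), which encodes the methionine adenosyltransferase of mature hepatocytes. Mat1a had 2737, 2824 and 2812 CPM in the Mdr2+/- libraries, against 2051 and 2321 CPM in the Mdr2+/+ libraries. All 3 Mdr2+/- libraries lay above both Mdr2+/+ libraries, and they lay closer together. Mat1a rose 1.28-fold (log2 fold change 0.35, SE 0.07, 95% interval 0.20 to 0.51, adjusted p = 0.0130). The call was lost without Mdr2+/- replicate 2 (log2 fold change 0.34, adjusted p = 0.0540) or Mdr2+/+ replicate 1 (0.26, adjusted p = 0.0524).

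Mat2a, the gene for the related enzyme of fetal liver and of most other tissues, was read beside Mat1a. It averaged 50.5 ± 3.00 CPM in Mdr2+/- and 52.1 ± 0.397 CPM in Mdr2+/+ livers (SD, n = 3 and n = 2) and was not called (log2 fold change -0.04, adjusted p = 0.733). Within a library, the ratio of Mat1a to Mat2a counts does not depend on scaling. It was 57.5, 56.3 and 52.4 in the Mdr2+/- libraries, against 39.6 and 44.3 in the Mdr2+/+ libraries. The log2 ratio was higher by 0.40 in Mdr2+/- livers, and the 2 genotypes did not overlap (exact permutation test, two-sided p = 0.1, the smallest that 3 against 2 libraries allow).

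Gnmt (ENSMUSG00000002769, chromosome 17, 46725664 to 46729168, minus strand) had the largest difference among the members. It encodes glycine N-methyltransferase, which moves a methyl group from SAM to glycine, giving sarcosine, and so disposes of SAM that is in excess. Gnmt had 234, 315 and 275 CPM in the Mdr2+/- libraries, against 146 and 173 CPM in the Mdr2+/+ libraries. The lowest Mdr2+/- library was above the highest Mdr2+/+ library. Gnmt rose 1.72-fold (log2 fold change 0.78, SE 0.12, 95% interval 0.51 to 1.06, adjusted p = 0.00447). It ranked 300 of 13959 tested genes by p-value, and it was called in each of 14 other fits. With libraries scaled to hepatocyte markers the log2 fold change was 0.71 (adjusted p = 0.00198).

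Nnmt (ENSMUSG00000032271, chromosome 9, 48591877 to 48605153, minus strand), the methyltransferase of nicotinamide, was near the detection limit in these pups. It had 5, 1 and 8 counts in the Mdr2+/- libraries, against 4 and 9 counts in the Mdr2+/+ libraries. The limit that a count of 0 allows, 3 counts, equals 0.174 to 0.252 CPM and covers counting error only, and Nnmt reached 0.0607 to 0.465 CPM in Mdr2+/- and 0.264 to 0.757 CPM in Mdr2+/+ libraries. A difference was not detectable at this depth. With no filter on low counts it was tested and not called (log2 fold change -0.66, adjusted p = 0.611). It also passed the filter without Mdr2+/+ replicate 1, and was not called there (-1.31, adjusted p = 0.369).

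SAH hydrolysis runs through Ahcy (ENSMUSG00000027597, chromosome 2, 155059310 to 155074497, minus strand), the enzyme that clears SAH. Ahcy had 607, 675 and 657 CPM in the Mdr2+/- libraries, against 551 and 570 CPM in the Mdr2+/+ libraries. The genotypes did not overlap, but the difference did not pass the test (log2 fold change 0.20, SE 0.07, adjusted p = 0.0817). It was called in 1 of 14 other fits, the one with no filter on low counts (log2 fold change 0.21, adjusted p = 0.0360). With libraries scaled to hepatocyte markers the log2 fold change was 0.13 (adjusted p = 0.377).

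Bhmt and its relative Bhmt2 had the smallest differences of the tested members beside Shmt1. Bhmt (ENSMUSG00000074768, chromosome 13, 93616675 to 93637961, minus strand) encodes betaine-homocysteine methyltransferase, which remakes methionine and turns betaine into dimethylglycine. It had 2416, 2688 and 2979 CPM in the Mdr2+/- libraries, against 2780 and 2845 CPM in the Mdr2+/+ libraries. The Mdr2+/- libraries lay on either side of the Mdr2+/+ values. The log2 fold change was -0.06 (95% interval -0.25 to 0.13, adjusted p = 0.688), and without Mdr2+/- replicate 1, the lowest library, it was 0.013.

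Bhmt2 (ENSMUSG00000042118, chromosome 13, 93655720 to 93674302, minus strand) lies 17758 bases from Bhmt and encodes a relative that uses S-methylmethionine as methyl donor. It had 249, 247 and 249 CPM in the Mdr2+/- libraries, against 235 and 233 CPM in the Mdr2+/+ libraries. The libraries of each genotype lay so close that the groups did not overlap, yet the difference was small and not called (log2 fold change 0.09, 95% interval -0.05 to 0.22, adjusted p = 0.384). The ratio of Bhmt to Bhmt2 counts was 9.72, 10.9 and 11.9 in Mdr2+/- and 11.8 and 12.2 in Mdr2+/+ libraries, which overlapped (exact permutation test, two-sided p = 0.3).

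Transsulfuration takes homocysteine to cysteine in a pair of steps. Cbs (ENSMUSG00000024039, chromosome 17, 31608894 to 31637238, minus strand), cystathionine beta-synthase, had 281, 350 and 338 CPM in the Mdr2+/- libraries, against 274 and 291 CPM in the Mdr2+/+ libraries. Mdr2+/- replicate 1 lay between the Mdr2+/+ libraries and the other 2 lay above them. Cbs was not called (log2 fold change 0.19, 95% interval -0.02 to 0.40, adjusted p = 0.211), although it was without Mdr2+/- replicate 1 (0.29, adjusted p = 0.0401). Fold changes moved with transcript length over the tested genes with an annotated length, cut into 5 bins by length, with a median of -0.13 in the shortest bin and 0.11 in the longest. Cbs, in the longest bin, had a log2 fold change of 0.10 with an offset for length (adjusted p = 0.595).

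Cth (ENSMUSG00000028179, chromosome 3, 157894248 to 157925077, minus strand), cystathionine gamma-lyase, had 206, 248 and 231 CPM in the Mdr2+/- libraries, against 179 and 192 CPM in the Mdr2+/+ libraries. Every Mdr2+/- library was above both Mdr2+/+ libraries. Cth rose 1.23-fold but only just passed (log2 fold change 0.30, SE 0.09, 95% interval 0.11 to 0.49, adjusted p = 0.0498). It was called in 6 of 14 other fits. The call was lost without Mdr2+/- replicate 2 or 3 or Mdr2+/+ replicate 1 or 2 (log2 fold change 0.24 to 0.35, adjusted p = 0.0952 to 0.225) and with libraries scaled to hepatocyte markers (0.23, adjusted p = 0.165).

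Shmt1 (ENSMUSG00000020534, chromosome 11, 60788104 to 60811718, minus strand), the cytosolic serine hydroxymethyltransferase, had the smallest fold change of the 8. It had 225, 209 and 219 CPM in the Mdr2+/- libraries, against 202 and 229 CPM in the Mdr2+/+ libraries, and the groups overlapped. The log2 fold change was 0.02 (95% interval -0.15 to 0.18, adjusted p = 0.911), and it was negative when libraries were scaled by size alone (-0.020) or to hepatocyte markers (-0.051), without Mdr2+/- replicate 1 (-0.0044) or without Mdr2+/+ replicate 1 (-0.076). Shmt1 overlaps Smcr8 on the opposite strand (mean 342 counts) and Bhmt overlaps Gm15622 (mean 19.5 counts), and whether counting used the strand is not given in the sources used here.

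**Figure D2:**
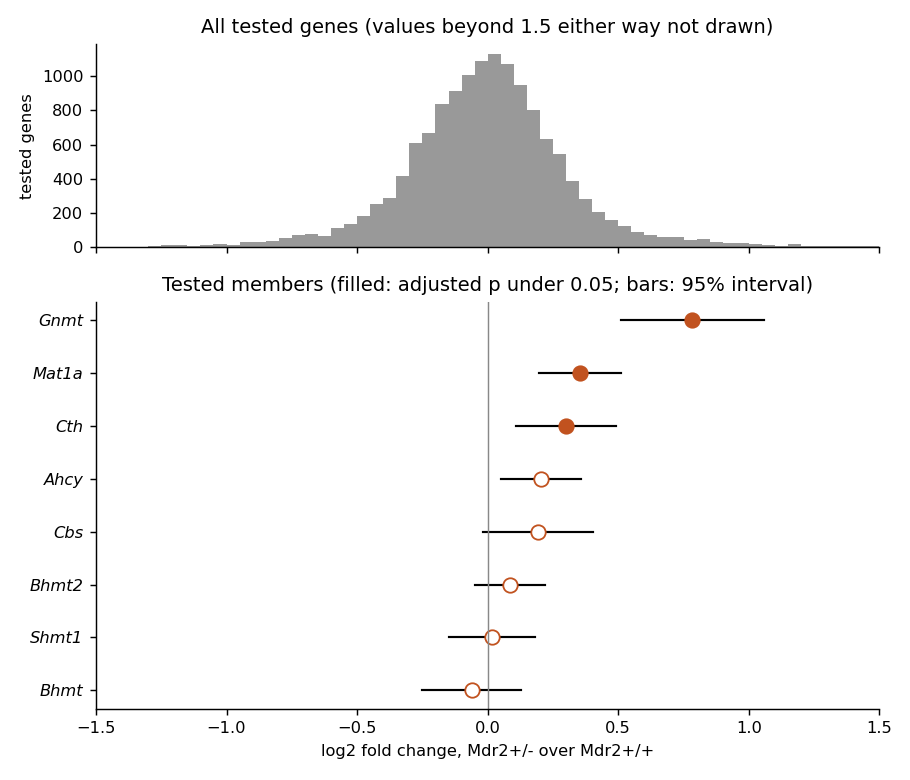
Log2 fold change of Mdr2+/- over Mdr2+/+ livers: above, the number of tested genes in bins of the fold change; below, the 8 tested enzymes with 95% intervals, filled where the adjusted p was under 0.05. Gnmt at 0.78 lies in the right tail of all genes, Mat1a (0.35) and Cth (0.30) follow, and Cbs, Bhmt2, Shmt1 and Bhmt have intervals that include 0.

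The enzymes also differed widely in level. Per kilobase of transcript (principal transcript in GENCODE M21), Bhmt and Mat1a led in both genotypes, at 1082 ± 113 and 805 ± 13.5 CPM per kilobase in Mdr2+/- livers and 1129 ± 18.5 and 630 ± 55.0 CPM per kilobase in Mdr2+/+ livers (SD, n = 3 and n = 2). On the CPM scale, without length, Bhmt ranked 39 and Mat1a 42 of 13959 tested genes. Gnmt and Ahcy came next, and here the order differed. In Mdr2+/- livers Gnmt (265 ± 39.1) and Ahcy (254 ± 13.9 CPM per kilobase) overlapped, while in Mdr2+/+ livers Ahcy (221 ± 5.22) lay above Gnmt (154 ± 18.8 CPM per kilobase). That change of order was read from the same values as the fold changes and was not tested.

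Below them stood Cth (126 ± 11.8 CPM per kilobase in Mdr2+/- and 102 ± 4.92 in Mdr2+/+ livers) and Bhmt2 (101 ± 0.504 and 94.8 ± 0.417). Shmt1 (76.2 ± 2.77 in Mdr2+/- and 75.4 ± 6.66 in Mdr2+/+) and Cbs (51.9 ± 5.92 and 45.4 ± 1.90) were lower still, and Nnmt was last at 0.294 ± 0.207 and 0.490 ± 0.334 CPM per kilobase. Apart from Gnmt and Ahcy in Mdr2+/- livers, no neighbours in this order overlapped within a genotype. The Cbs value rests on an annotated transcript of 6226 bases, the longest of the 9, so a shorter transcript would place it higher. Together the 9 genes took 0.682, 0.750 and 0.771% of all counts in the Mdr2+/- libraries and 0.664 and 0.682% in the Mdr2+/+ libraries.

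**Figure D3:**
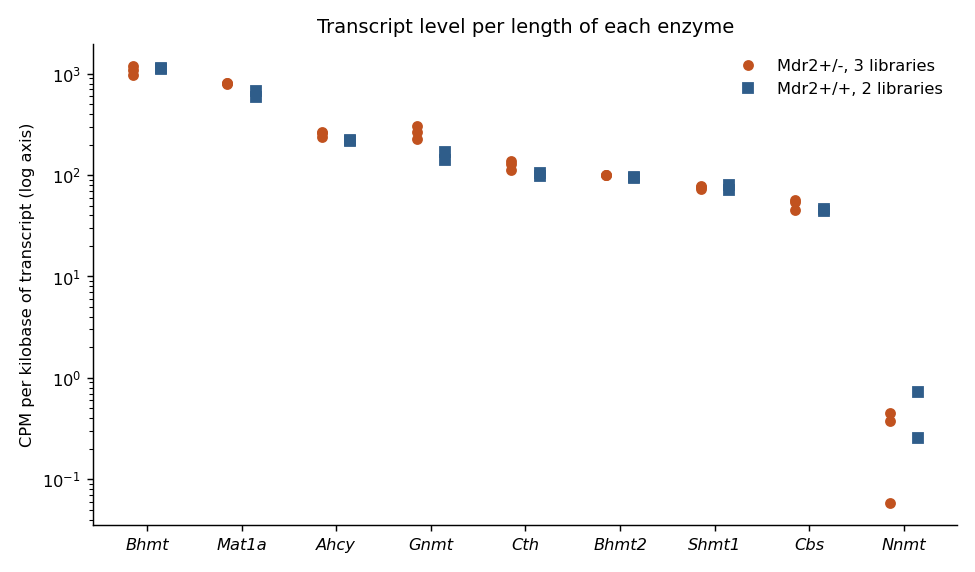
CPM per kilobase of transcript on a log axis for each enzyme, ordered by the mean over the 5 libraries; circles are the 3 Mdr2+/- and squares the 2 Mdr2+/+ libraries. Bhmt and Mat1a stand highest, and Nnmt lies below 1 in every library.

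Likeness between profiles was measured as the root mean square difference of log2 CPM over the 5 libraries, each gene centred on its own mean. Among the tested members the closest pair was Ahcy and Cbs (0.0591), followed by Ahcy and Cth (0.0607) and Cbs and Cth (0.0615). Gnmt stood farthest from the others, at 0.24 from Mat1a, its nearest member, and at 0.43 from Bhmt. These differences are not scaled for the size of a change, so they partly restate the fold changes above. Outside the members, 8118 genes with a mean of at least 10 CPM were compared. The nearest to Gnmt were Keg1 (0.0336), Gas2 (0.0708) and Sfxn5 (0.0795). The nearest to Mat1a were Cdc73, Dennd5a and Ugt3a1 (0.0157, 0.0206 and 0.025), and the nearest to Cth were Scyl2, Nup153 and Wdr4 (0.011, 0.0206 and 0.0274). With so many candidates and 5 libraries, close profiles are a description of these samples.

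The rest of the pathway was read from a list of 69 other genes, of which 67 were tested. Of these, 9 rose and 7 fell (23.9% called, beside 12% of all tested genes), with a median log2 fold change of 0.0067, beside -0.0025 over all tested genes. The list was chosen with earlier results of these data known, so the shares called, here and by role below, are descriptive. The median was -0.018 without Mdr2+/+ replicate 1 and -0.0017 without Mdr2+/- replicate 2. Without Mdr2+/+ replicate 1, 3 rose, and without Mdr2+/- replicate 2 or 3 or Mdr2+/+ replicate 2, 4 fell. The balance of 9 higher and 7 lower was 5 and 9 with libraries scaled to hepatocyte markers, and 7 and 9 by size alone. Sqrdl, Sardh, Psat1 and Psph, 4 of the 16 called genes, were called in each of the 14 other fits. The least stable calls were Icmt, kept in 4 of those fits, and Dmgdh, kept in 6.

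Betaine oxidation continues from the dimethylglycine that Bhmt makes. Of 4 tested genes 2 rose and 0 fell (50% called, beside 12% of all tested genes). The 2 that rose were Sardh, which turns sarcosine, the product of Gnmt, into glycine, and Dmgdh, which turns dimethylglycine into sarcosine. Sardh had 537, 588 and 561 CPM in the Mdr2+/- libraries, against 419 and 423 CPM in the Mdr2+/+ libraries (log2 fold change 0.42, adjusted p = 0.00442). Dmgdh had 400, 422 and 414 CPM in the Mdr2+/- libraries, against 332 and 366 CPM in the Mdr2+/+ libraries (0.24, adjusted p = 0.0497). Dmgdh starts 130 bases from Bhmt2 on the opposite strand, so the Bhmt2 window printed above spans the gap between them, and Bhmt2 itself had a log2 fold change of 0.09. Dmgdh lost its call without any one Mdr2+/- library or Mdr2+/+ replicate 1 (adjusted p = 0.0644 to 0.235). Aldh7a1, which oxidises betaine aldehyde, did not pass (0.29, adjusted p = 0.0525), nor did the choline dehydrogenase Chdh (0.13, adjusted p = 0.263).

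Among 11 glycine and serine genes, 3 rose and 2 fell (45.5% called, beside 12% of all tested genes). Sds, the dehydratase that breaks down serine, had 56.3, 109 and 98.7 CPM in the Mdr2+/- libraries, against 36.1 and 43.5 CPM in the Mdr2+/+ libraries (log2 fold change 1.16, adjusted p = 0.0146). Agxt, which turns glyoxylate into glycine, averaged 664 ± 49.8 CPM in Mdr2+/- and 515 ± 6.77 CPM in Mdr2+/+ livers (0.37, adjusted p = 0.0144). Amt, a subunit of the glycine cleavage system, averaged 47.7 ± 0.980 and 37.9 ± 2.12 CPM (0.33, adjusted p = 0.0158). The genes that fell make serine from a glycolytic intermediate. Psat1 had 11.5, 10.7 and 9.60 CPM in the Mdr2+/- libraries, against 16.8 and 19.5 CPM in the Mdr2+/+ libraries (-0.78, adjusted p = 0.00369). Psph had 13.2, 12.1 and 12.5 CPM in the Mdr2+/- libraries, against 18.3 and 19.2 CPM in the Mdr2+/+ libraries (-0.57, adjusted p = 0.00541). Phgdh, the first enzyme of that route, did not pass (-0.63, adjusted p = 0.0533). Calls were lost for Sds without either Mdr2+/+ library (adjusted p = 0.0508 to 0.108) and with robust limma-voom, for Agxt without Mdr2+/- replicate 2 or either Mdr2+/+ library (0.0551 to 0.0629) and for Amt without Mdr2+/- replicate 3 or Mdr2+/+ replicate 2 (0.0542 to 0.0815).

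**Figure D4:**
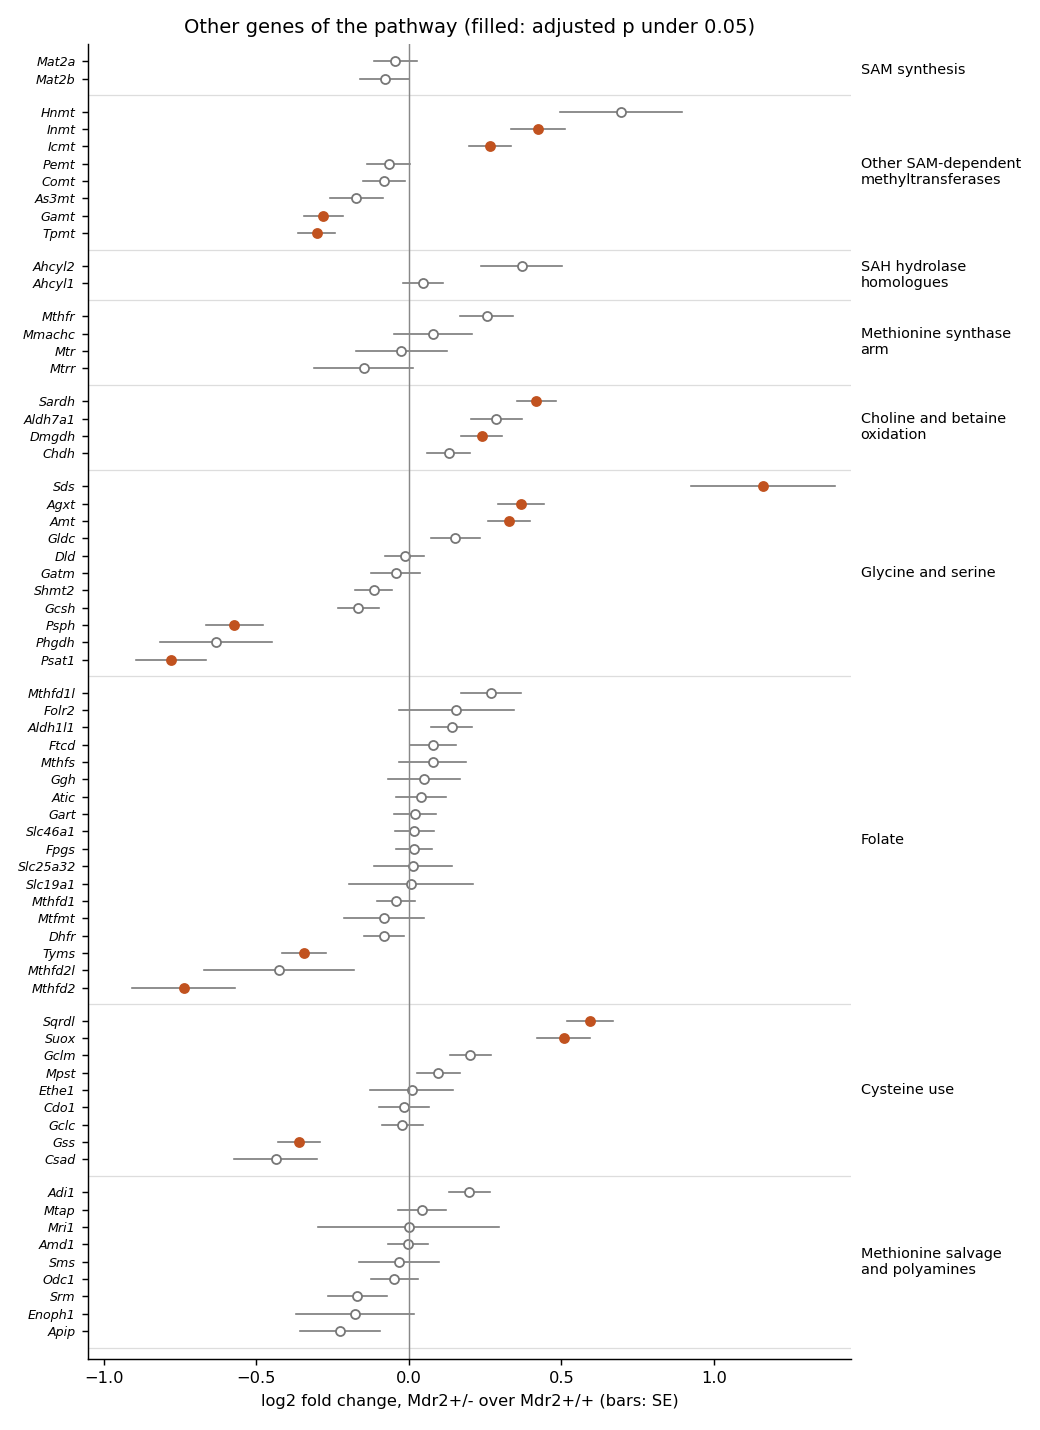
Log2 fold change with SE (bars) of 67 other tested genes of the pathway, grouped by role, filled where the adjusted p was under 0.05. Sds (1.16) stands farthest to the right and Psat1 (-0.78) and Mthfd2 (-0.74) farthest to the left, while most folate genes lie near 0.

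Of 18 tested folate genes, 0 rose and 2 fell (11.1% called, near the 12% of all tested genes). Mthfd2, the mitochondrial folate dehydrogenase typical of growing cells, averaged 4.17 ± 0.419 CPM in Mdr2+/- and 6.91 ± 0.969 CPM in Mdr2+/+ livers (log2 fold change -0.74, adjusted p = 0.0219). Tyms, which makes thymidylate for DNA synthesis, averaged 33.7 ± 1.57 CPM in Mdr2+/- and 42.8 ± 1.93 CPM in Mdr2+/+ livers (-0.34, adjusted p = 0.0159). Mthfd2 lost its call without Mdr2+/- replicate 3 or Mdr2+/+ replicate 1 (adjusted p = 0.069 to 0.153). Tyms lost it without Mdr2+/- replicate 2 or 3 or Mdr2+/+ replicate 1 (0.0578 to 0.0972). Of the 4 genes of the methionine synthase arm, the folate route back to methionine, 0 were called, and Mtr itself had a log2 fold change of -0.02 (adjusted p = 0.939).

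Below cysteine, 2 of 9 tested genes rose and 1 fell (33.3% called, beside 12% of all tested genes). Sqrdl, the older symbol of Sqor, which oxidises sulfide in mitochondria, had 174, 197 and 178 CPM in the Mdr2+/- libraries, against 116 and 127 CPM in the Mdr2+/+ libraries (log2 fold change 0.59, adjusted p = 0.00203). Suox, which oxidises sulfite to sulfate, averaged 199 ± 19.9 CPM in Mdr2+/- and 140 ± 6.35 CPM in Mdr2+/+ livers (0.51, adjusted p = 0.00696). Gss, glutathione synthetase, averaged 81.2 ± 2.44 CPM in Mdr2+/- and 104 ± 8.86 CPM in Mdr2+/+ livers (-0.36, adjusted p = 0.0119). Suox lost its call without Mdr2+/+ replicate 1 (adjusted p = 0.0577) and Gss without Mdr2+/+ replicate 2 (0.0696). Cdo1, which commits cysteine to taurine and sulfate, was not called (-0.02, adjusted p = 0.921).

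Other methyltransferases that draw on SAM moved in both directions. Of 8 tested, 2 were higher and 2 lower (50% called, beside 12% of all tested genes). Inmt, which methylates indoles and thioethers, averaged 403 ± 37.6 CPM in Mdr2+/- and 301 ± 21.5 CPM in Mdr2+/+ livers (log2 fold change 0.42, adjusted p = 0.0157). Icmt, which acts on prenylated proteins, averaged 36.0 ± 1.10 and 30.0 ± 0.551 CPM (0.27, adjusted p = 0.0379). Gamt, the last enzyme of creatine synthesis, averaged 181 ± 2.46 CPM in Mdr2+/- and 220.3 ± 14.1 CPM in Mdr2+/+ livers (-0.28, adjusted p = 0.0229). Tpmt, which methylates thiopurines, averaged 87.4 ± 1.68 and 108 ± 5.11 CPM (-0.30, adjusted p = 0.0143). Pemt, the methyltransferase of phosphatidylcholine synthesis, was not called (-0.07, adjusted p = 0.588). Icmt lost its call without any single library (adjusted p = 0.069 to 0.163) and Inmt without Mdr2+/+ replicate 1 (0.103). Gamt lost it without Mdr2+/- replicate 2 or 3 or Mdr2+/+ replicate 2 (0.0712 to 0.123) and with an offset for transcript length. Tpmt lost it without Mdr2+/- replicate 2 or Mdr2+/+ replicate 2 (0.0552 to 0.0768). SAM synthesis genes beside Mat1a, SAH hydrolase homologues, and methionine salvage and polyamine genes gave 0 calls among 2, 2 and 9 tested.

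Markers of blood cells differed between the same libraries (over all tested genes, 6.63% rose and 5.41% fell). Erythroid markers, 6 of the 8 listed being counted, summed to 965 to 1064 CPM in Mdr2+/- and 1587 to 1969 CPM in Mdr2+/+ libraries, and 5 of the 6 fell. Neutrophil markers summed to 345 to 443 CPM in Mdr2+/- and 105 to 154 CPM in Mdr2+/+ libraries, and 7 of 7 rose. B cell markers summed to 22.9 to 28.0 CPM in Mdr2+/- and 8.58 to 11.6 CPM in Mdr2+/+ libraries, and 3 of 4 rose. None of these markers was at 0. Stellate cell markers summed to 639 to 689 CPM in Mdr2+/- and 566 to 603 CPM in Mdr2+/+ libraries, and 1 of 5 rose. That gene was Reln, at 274, 280 and 250 CPM in Mdr2+/- and 188 and 197 CPM in Mdr2+/+ libraries. The others were not called, with log2 fold changes of 0.22 (Col1a1), 0.20 (Lrat), -0.10 (Dcn) and -0.14 (Des). Kupffer cell markers summed to 234 to 277 CPM and 219 to 340 CPM, and 1 of 5 fell. Sinusoidal endothelial markers summed to 193 to 209 CPM and 191 to 200 CPM, and 1 of 4 fell. Of 5 cholangiocyte markers, 0 were called. With libraries scaled to hepatocyte markers, Gnmt and Mat1a had log2 fold changes of 0.71 and 0.28 (adjusted p = 0.00198 and 0.0282). Under that scaling 5 called genes kept their direction but not their call, with log2 fold changes of 0.23 for Cth, 0.29 for Agxt, 0.25 for Amt, 0.19 for Icmt and 0.17 for Dmgdh. The part of other cell types in the differences was not tested.

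**Figure D5:**
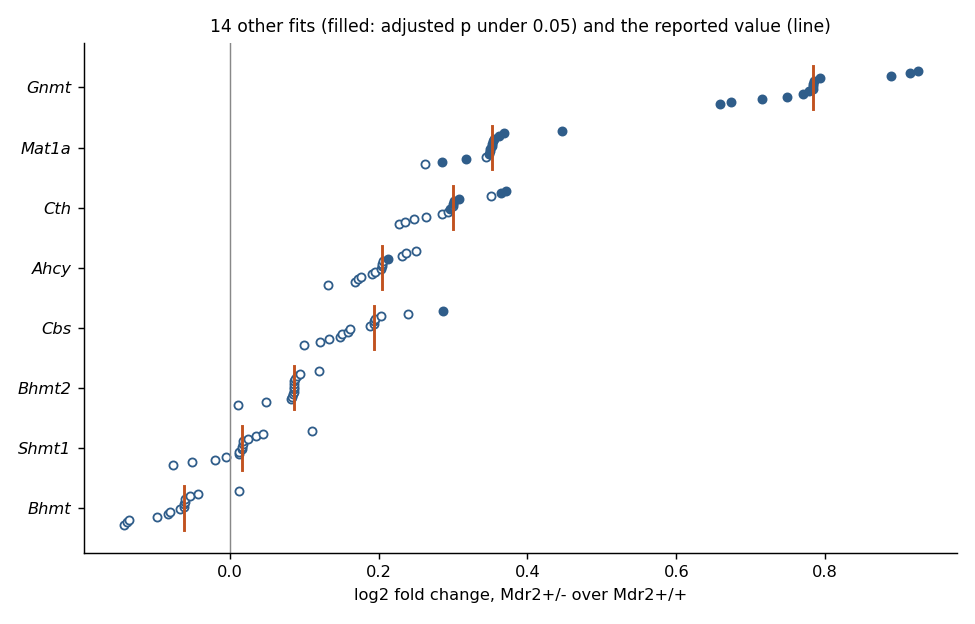
Log2 fold change of the 8 tested enzymes under 14 other filters, scalings, tests and sets of libraries (circles, filled where the adjusted p was under 0.05) beside the reported value (line). Gnmt is filled throughout, Mat1a in 12, Cth in 6, and Bhmt, Bhmt2 and Shmt1 in 0.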

How the data were processed

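Liver RNA from 5 libraries, 3 Mdr2+/- and 2 Mdr2+/+, was made into TruSeq libraries and read on an Illumina sequencer (per the labels' protocols). TopHat and the build mm10 are named in the submitters' processing notes. Counting tool, annotation and strand setting: not given in the sources used here. The authors deposited estimated counts per Ensembl gene, not scaled to depth or length, and 33.9 to 37.3% of values above 0 were whole (tolerance 1e-06).

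Estimated counts were rounded. Genes were kept by filterByExpr (minimum count 10) in edgeR 4.0.16 and R 4.3.3, scaled by TMM and tested by glmQLFit and glmQLFTest, two-sided, without covariates. Adjusted p-values (Benjamini-Hochberg, threshold 0.05) run over all 13959 tested genes. The SE is the log2 fold change, without its sign, over the root of F, and 95% intervals use the test's degrees of freedom. Log2 CPM used a prior count of 2. Coordinates and lengths came from GENCODE M21. The alternatives used limma 3.58.1 and DESeq2 1.42.0.

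The reported fit was first tested on simulated data. It recovered 45.7% of 70 genes set to a log2 fold change of 0.5 either way, 86.4% of 59 at 1 and 95.8% of 71 at 2. Unchanged genes made up 3.21% of the calls. All other genes were left unchanged in the simulation, and each gene varied only as the fitted trend sets. The shares recovered and wrongly called may therefore differ in the real data, where 12% of genes were called. Pairs of libraries were compared over genes, and no libraries agreed within sampling noise (chi-square per degree of freedom at least 5.30). Members and lists were chosen with earlier results of these data known. All members, all called genes of the pathway list, Mat2a and the 3 genes with the profile nearest to each called member are named by rule. Other uncalled genes named were picked after their values were seen.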

Additional observations from a re-analysis of the deposited data

How the results depend on the processing

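Fits with 2 other filters, 3 other scalings, DESeq2, robust limma-voom, a length offset, a replicate block and each library left out were compared with the reported values. Gnmt kept its direction and call in these 14 fits (log2 fold change 0.66 to 0.92). Members called higher numbered 3, and 1 to 4 in the other fits, with 1 without Mdr2+/- replicate 2 or Mdr2+/+ replicate 1; 0 fell in these fits. Without single libraries Mat1a had 0.26 to 0.45 and Cth 0.24 to 0.37. Cth was not called with DESeq2 size factors (0.30), library size alone (0.26), hepatocyte scaling (0.23) or the block (0.28, adjusted p = 0.0677). Ahcy was called only with no filter (0.21), and Cbs had 0.13 to 0.29 without single libraries and 0.10 with the length offset. Shmt1 changed sign by library size alone (-0.020), by hepatocyte scaling (-0.051) and without single libraries (-0.076 to 0.11, and -0.0044 without Mdr2+/- replicate 1), and Bhmt without single libraries (-0.14 to 0.013). The count of 1680 genes was 981 with hepatocyte scaling (331 higher) and 697 to 1174 without single libraries (345 to 670 higher, 352 to 504 lower), and 1251 with the length offset. The pathway list gave 5 higher and 9 lower with hepatocyte scaling, 7 and 9 by library size alone, and 3 to 7 higher and 4 to 7 lower without single libraries. Its median of 0.0067 was -0.033 by library size alone and -0.072 with hepatocyte scaling, beside -0.040 and -0.078 over all genes, and -0.018 to 0.0088 without single libraries. Deviations of same-numbered libraries from their genotype means had r = 0.0304 and 0.0286. With 2 Mdr2+/+ libraries, whose deviations mirror each other, these values cannot decide whether replicate numbers mark pairs. The block gave 1277 calls over all genes. The cause of these changes was not tested. Nnmt, with 1 to 9 counts a library, was not tested in the reported fit.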
